A study of Mus musculus with 4 samples.

Results

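Transcripts of 9 enzymes that make ceramide, sphingomyelin or glucosylceramide were followed in mouse samples in which the IL-36 receptor antagonist was targeted. They were taken by gene symbol from a table of 17958 genes, and all 9 were present, each listed once. The set holds the serine palmitoyltransferase subunits Sptlc1, Sptlc2 and Sptlc3, the ceramide synthases Cers3 and Cers4, the desaturase and hydroxylase Degs2, the sphingomyelin synthases Sgms1 and Sgms2, and the glucosylceramide synthase Ugcg. The transcripts were measured by RNA sequencing in 4 libraries, 2 labelled IL-36Ra-cKO (here cKO 1 and cKO 2) and 2 labelled IL-36Rafl/fl (here fl/fl 1 and fl/fl 2). IL-36Ra, encoded by Il36rn, is the secreted antagonist that keeps IL-36 cytokines from signalling. The genotype field gives the first group as a knockdown and the second as WT, although by their sample names the second group carries the floxed allele. The tissue is labelled as epidermal keratinocytes, and no treatment was given to either group. The sources used here do not give age, sex, strain, the Cre driver or whether each library is a separate animal, so p-values measure only the spread between these libraries, which may be technical.

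Ceramides are made from serine and fatty acyl-CoA. Serine palmitoyltransferase makes the sphingoid base, ceramide synthases add a second fatty acid, and a desaturase or hydroxylase finishes the base. Keratinocytes then store ceramide as glucosylceramide and sphingomyelin, which are packed into lamellar granules and cleaved back to ceramide in the stratum corneum, where ceramides form much of the water barrier.

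Library totals ran from 14622791 to 16490602 counts. Epidermal keratin genes were high in all 4 libraries: the summed level of 8 basal markers ran from 14277 to 16431 TPM (a level per transcript length, scaled to the same total in every library) and that of 11 suprabasal markers from 31037 to 51562 TPM. Genes of dermis, fat, muscle and other tissues were read as well, so the label of epidermal keratinocytes does not cover all of the RNA. cKO 2 stood apart in the summed levels of hair, sebaceous, melanocyte, muscle and dermis markers. The summed level of 16 hair follicle and shaft markers was 3463 TPM in cKO 1, 12.6 in cKO 2, 10291 in fl/fl 1 and 10486 in fl/fl 2, and 7 of the 16 were at 0 in cKO 2. The summed level of 11 sebaceous gland markers was 602, 201, 548 and 538 TPM in the same order, and that of 10 skeletal muscle markers was 58.3, 1755, 123 and 150 TPM. For 6 melanocyte markers it was 187, 11.3, 482 and 463 TPM, and for 8 dermis markers 1150, 2014, 1057 and 1318 TPM. Among the dermis markers Col1a1, Col1a2, Col3a1, Dcn and Dpt were highest in cKO 2 in TPM. Lum, Pdgfra and Fbln1 were not, and Fbln1 was lowest there. In the sum of 7 fat markers fl/fl 1 stood apart instead, at 702 TPM against 1637 to 1647 in the other libraries. Y-linked genes summed to 124 and 154 TPM in the cKO libraries and to 0.98 and 1.23 TPM in the fl/fl libraries, so an apparent difference in sex cannot be told apart from genotype in any difference given here. The targeted gene, listed as Il1f5, was still read, at 171 and 135 TPM in the cKO libraries and 234 and 179 TPM in the fl/fl libraries. In counts scaled to library size (CPM) the groups overlapped, at 222 and 165 in the cKO against 254 and 203 in the fl/fl libraries. Its log2 fold change was -0.24 ± 0.24 (SE, edgeR adjusted p = 0.509), so a lower level in the cKO libraries was not established. The summed Langerhans cell and T cell markers were higher in both cKO libraries than in either fl/fl library (Langerhans 761 and 852 against 466 and 564 TPM, T cell 134 and 157 against 80.5 and 104 TPM). Thy1, the largest part of the T cell sum, overlapped between the groups in TPM, and the other T cell markers did not. Epcam was lower in both cKO libraries, unlike the other Langerhans cell markers. The part of these shifts in the members' values was not tested. In bulk RNA, fewer cells of a type and less RNA per cell cannot be told apart.

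Of the 9 members, Sptlc3 was read at 2.29 times and Sgms2 at 0.260 times its fl/fl level in the cKO libraries, Ugcg at 0.637 times and Cers3 at 0.602 times, while Sptlc1 and Sgms1 lay within 1 SE of no difference. Degs2 and Cers4 differed most between the cKO libraries themselves. Changes are given as log2 fold changes of CPM (counts scaled to library size, not to length), cKO minus fl/fl, from a single edgeR quasi-likelihood fit across 14459 genes. No member passed a Benjamini-Hochberg adjusted p of 0.05 over all genes in that fit, and 0.0277% of all genes tested did. These were 4 genes, all higher, and 3 of them are Y-linked, so that share goes with the apparent difference in sex. An unadjusted p under 0.05 was reached by 5 of the 9 members, by Sptlc3 on the higher side and by Sgms2, Ugcg, Degs2 and Cers3 on the lower side. Of all genes tested, 32.1% reached it, 16.5% on the higher and 15.6% on the lower side. Without any 1 library the changes of these 5 members kept their sign. They ran from 0.98 to 1.42 for Sptlc3, from -2.24 to -1.61 for Sgms2 and from -0.83 to -0.48 for Ugcg. For Degs2 they ran from -3.31 to -1.21 and for Cers3 from -1.05 to -0.36. The median change of the 9 was -0.38, against 0.00 over all genes tested. DESeq2 gave 4 members an adjusted p under 0.05 (Sptlc3, Sgms2, Degs2 and Ugcg), where 17.8% of all genes passed. The cKO and fl/fl libraries did not overlap in CPM for 7 of the 9 members, where 67.7% of all genes tested also showed no overlap.

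**Figure D1:**
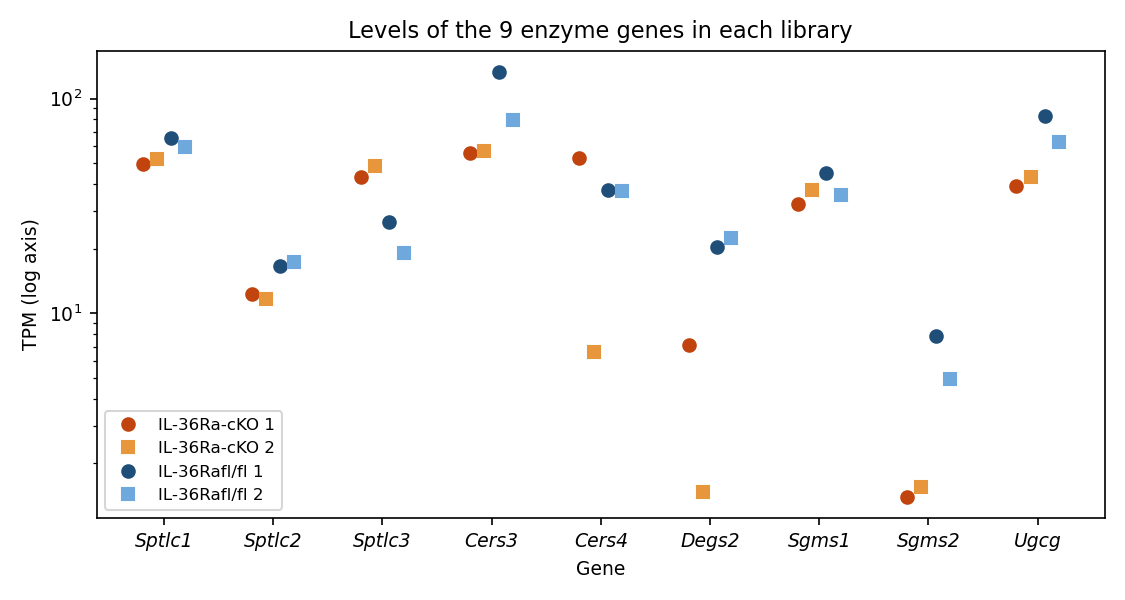
Level of each enzyme gene in TPM (log axis) in each of the 4 libraries; each point is 1 library. Sptlc3 is the only one of the 9 with both cKO points above both fl/fl points, and Cers4 and Degs2 are the 2 genes in which cKO 2 falls far from cKO 1.

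By level per length, Cers3 led in the fl/fl libraries at 106 ± 37.6 TPM (SD, n = 2), followed by Ugcg at 72.9 ± 14.2 and Sptlc1 at 62.5 ± 4.33. Neighbours in that order overlapped between libraries for these 3 genes. Sgms1 (40.1 ± 6.59 TPM) and Cers4 (37.2 ± 0.233) came next and overlapped each other, as did Sptlc3 (22.8 ± 5.37) and Degs2 (21.4 ± 1.39). Sptlc2 lay below them at 16.9 ± 0.601 TPM and Sgms2 lowest at 6.38 ± 2.06. In the cKO libraries the order by mean TPM was Cers3 (56.4 ± 0.757), Sptlc1 (51.0 ± 2.13), Sptlc3 (45.8 ± 3.94), Ugcg (41.1 ± 2.60) and Sgms1 (34.8 ± 3.55), and the first 4 did not overlap with the gene after them. By mean TPM, Sptlc3 thus stood 6th of 9 in the fl/fl and 3rd of 9 in the cKO libraries. These places did not hold in every library. Cers4 was at 53.0 TPM in cKO 1 and 6.59 in cKO 2, above and below Sptlc3 (43.0 and 48.5). In fl/fl 2, Degs2 (22.4 TPM) was above Sptlc3 (19.0). On the TPM scale the median gene was lower in the cKO libraries by 0.16 in log2(TPM + 1), a shift that enters every TPM difference between the groups but no ratio within a library.

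**Figure D2:**
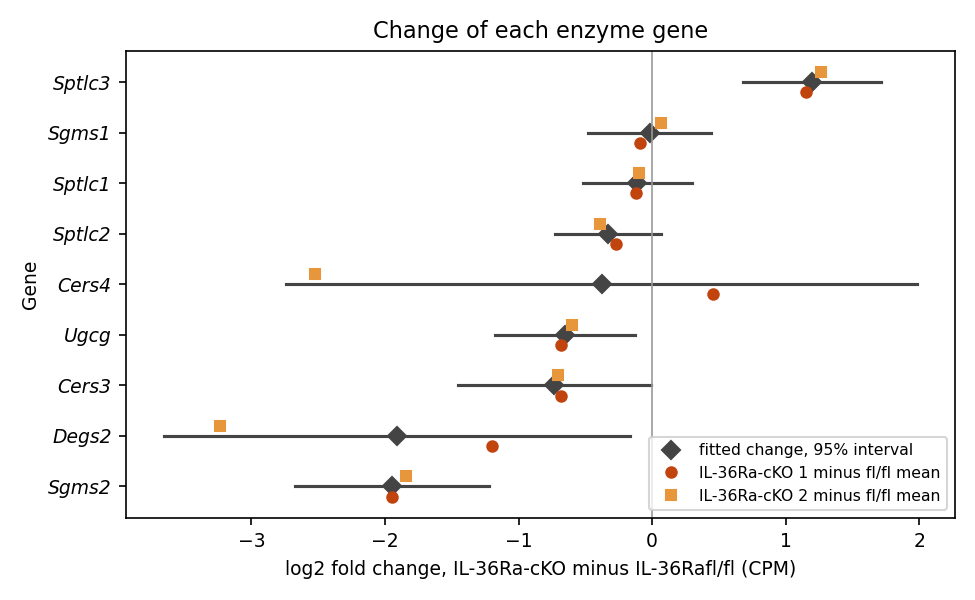
Fitted log2 fold change of each enzyme gene with its 95% interval (diamond and line), and log2 CPM of each cKO library minus the fl/fl mean (circle, cKO 1; square, cKO 2). The intervals of Sptlc3 and Sgms2 lie farthest from 0 for their width, and those of Cers4 and Degs2 are the widest.

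Sptlc1 encodes the subunit shared by all serine palmitoyltransferase complexes, and Sptlc2 and Sptlc3 encode alternative catalytic subunits that pair with it. In human cells SPTLC3 is known to accept other acyl-CoAs than SPTLC2 and so to give sphingoid bases of other lengths. Sptlc3 was read at 70.0 CPM in cKO 1, 75.7 in cKO 2, 36.5 in fl/fl 1 and 27.1 in fl/fl 2. Both cKO libraries were above both fl/fl libraries, and the cKO libraries differed less from each other than the fl/fl libraries did. The log2 fold change was 1.20 ± 0.20 (SE), a fold of 2.29 with a 95% interval from 1.60 to 3.28, and the adjusted p was 0.0711 by edgeR and 0.0012 by DESeq2. Leaving out any 1 library left it between 0.98 and 1.42.

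Sptlc2 did not share that pattern. It was read at 67.6 and 62.4 CPM in cKO 1 and cKO 2 and at 78.0 and 85.7 CPM in fl/fl 1 and fl/fl 2. All cKO values were below all fl/fl values, by a log2 fold change of -0.33 ± 0.15 (SE; edgeR adjusted p = 0.199, DESeq2 adjusted p = 0.234). Sptlc1 was read at 97.9, 99.6, 109 and 104 CPM in the same order, a change of -0.11 ± 0.16 (SE; edgeR adjusted p = 0.635). The 95% interval of its fold ran from 0.700 to 1.23.

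Within a library, where no scaling factor enters, Sptlc3 exceeded Sptlc2 by 3.49 times in cKO 1 and 4.15 times in cKO 2 on the TPM scale, and by 1.61 and 1.09 times in fl/fl 1 and fl/fl 2. Sptlc3 thus made up 77.7% and 80.6% of the summed TPM of both catalytic subunits in the cKO libraries and 61.7% and 52.2% in the fl/fl libraries. The mean log2 ratio differed by 1.52 between the groups and ran from 1.24 to 1.80 without any 1 library. An exact two-sided permutation test gave p = 0.333, the smallest that 2 libraries against 2 allow, so this design cannot reach 0.05 for a ratio.

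The promoter windows of both catalytic subunit genes are shown because these genes differed in their pattern although their products fill the same place in the enzyme. Each window runs from 250 bases before to 50 bases after the annotated start (RefSeq, GRCm38.p6), whereas the submitters name GRCm39 as the build for the reads. Sptlc3 lies at chr2:139493663-139493962 on the plus strand and Sptlc2 at chr12:87388306-87388605 on the minus strand. Capitals mark matches on either strand to a CCAAT box (CCAAT) or a GC box (GGGCGG).
Sptlc3: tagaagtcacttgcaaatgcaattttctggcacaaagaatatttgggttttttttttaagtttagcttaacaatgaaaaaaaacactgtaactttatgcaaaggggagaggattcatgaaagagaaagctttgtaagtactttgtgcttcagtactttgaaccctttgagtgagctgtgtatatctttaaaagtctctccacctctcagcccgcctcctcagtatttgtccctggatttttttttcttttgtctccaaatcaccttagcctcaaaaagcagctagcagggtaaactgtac
Sptlc2: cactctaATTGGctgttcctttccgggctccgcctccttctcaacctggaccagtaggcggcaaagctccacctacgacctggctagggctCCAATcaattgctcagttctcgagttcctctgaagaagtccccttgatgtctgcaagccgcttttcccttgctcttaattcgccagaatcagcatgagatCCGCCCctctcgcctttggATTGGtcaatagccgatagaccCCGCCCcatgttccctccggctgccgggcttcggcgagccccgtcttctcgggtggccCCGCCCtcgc

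The Sptlc3 window holds 37.3% G and C, and only 6.63% of 32851 such windows over all genes hold as little or less. It has no CCAAT box and no GC box. The Sptlc2 window holds 59.3% G and C, with 3 CCAAT boxes and 3 GC boxes. Over all windows, 37.4% hold a CCAAT box and 35.7% a GC box. Neither window held a TATA box (TATAAA, in 13.6% of all windows), an AP-1 site (TGANTCA, 7.81%), an E-box (CACGTG, 7.15%) or a match to the NF-kB consensus (8.46%), which says only that these letters are not in these windows.

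Cers3 encodes the synthase that builds ceramides with very long fatty acids, and mice without it die of a failed skin barrier. It was read at 143 and 140.3 CPM in cKO 1 and cKO 2 and at 289 and 181 CPM in fl/fl 1 and fl/fl 2. Both cKO libraries were below both fl/fl libraries, but the fl/fl libraries lay farther from each other than fl/fl 2 lay from the cKO libraries. The log2 fold change was -0.73 ± 0.28 (SE; edgeR adjusted p = 0.152, DESeq2 adjusted p = 0.0760). It was -0.36 without fl/fl 1 and -1.05 without fl/fl 2, so its size rests on fl/fl 1. Against Cers2, a synthase of broad expression, the TPM ratio of Cers3 was 3.82, 3.90, 7.84 and 3.53 in the same order, and the groups overlapped.

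Cers4 is known for its role in hair follicles and sebaceous glands, since mice without it lose hair. It split the cKO libraries. Its level was 53.0 TPM in cKO 1, 6.59 in cKO 2, 37.4 in fl/fl 1 and 37.0 in fl/fl 2, so that cKO 1 was the highest of the 4 libraries and cKO 2 the lowest. cKO 1 exceeded cKO 2 by 7.90 times in CPM, and 1.78% of all genes tested differed as much or more between these libraries. The fitted change of -0.38 ± 0.91 (SE; edgeR adjusted p = 0.785) describes neither library: it was 0.45 without cKO 2 and -2.53 without cKO 1 (edgeR adjusted p = 0.0173). The TPM ratio of Cers3 to Cers4 was accordingly 1.05 in cKO 1 and 8.63 in cKO 2, on either side of the fl/fl values of 3.56 and 2.16.

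Degs2 encodes an enzyme that both desaturates and hydroxylates the sphingoid base and so yields the phytoceramides of skin. It was read at 9.05 CPM in cKO 1, 2.11 in cKO 2, 19.7 in fl/fl 1 and 22.2 in fl/fl 2. Both cKO libraries were below both fl/fl libraries, and cKO 2 was below cKO 1 by a further 4.29 times. The log2 fold change was -1.91 ± 0.67 (SE; edgeR adjusted p = 0.139, DESeq2 adjusted p = 0.0220), and it was -1.21 without cKO 2 and -3.31 without cKO 1. Degs1, the desaturase of broad expression, was at 106, 146, 151 and 162 TPM in cKO 1, cKO 2, fl/fl 1 and fl/fl 2, a log2 fold change of -0.14 ± 0.21 (SE). In GENCODE M21, exons of Degs2 overlap exons of Evl on the other strand, and whether the counting used strand is not given in the sources used here. Evl was at 9.69, 2.85, 12.3 and 13.6 TPM in the same order, lowest in cKO 2 as well.

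**Figure D3:**
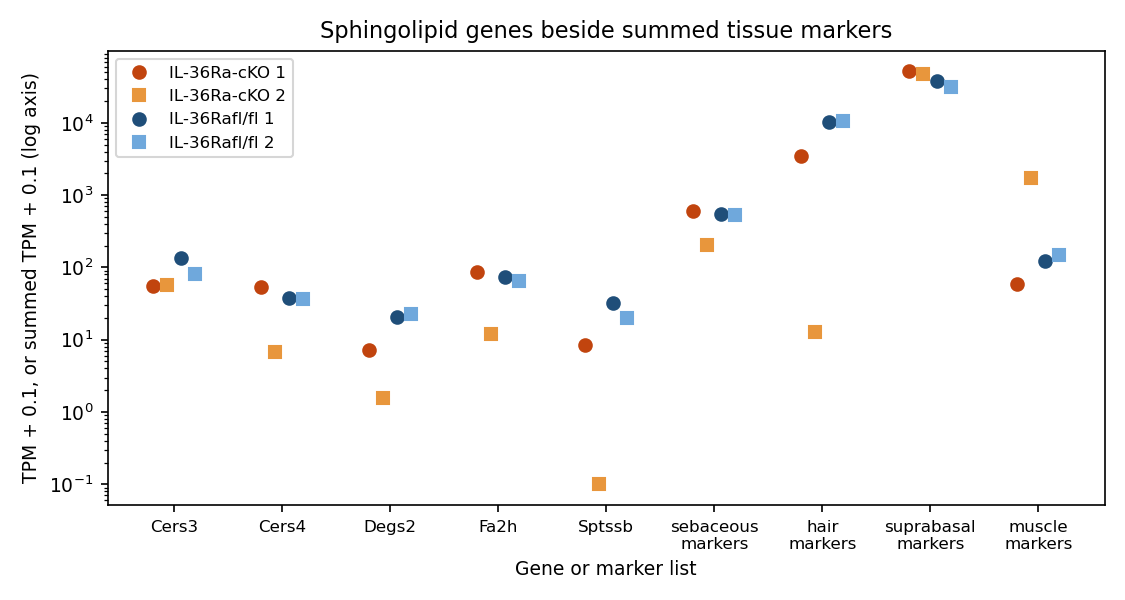
TPM of 5 sphingolipid genes and summed TPM of 4 marker lists in each library (log axis, 0.1 added to every value); each point is 1 library. Cers4, Degs2, Fa2h and Sptssb are lowest in cKO 2, as are the hair and sebaceous sums, while Cers3 is not and the muscle sum is highest there.

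All 16 hair markers, all 6 melanocyte markers and 10 of 11 sebaceous markers were lowest in cKO 2. The sebaceous sum was 602 TPM in cKO 1, above the fl/fl sums of 548 and 538, as Cers4 was. Its largest part was Krt79, at 343, 163, 329 and 288 TPM in cKO 1, cKO 2, fl/fl 1 and fl/fl 2. Its single genes were divided in TPM. Krt79, Scd3, Awat1, Far2 and Cidea were higher in cKO 1 than in either fl/fl library. Mc5r, Fads2 and Soat1 were lower in cKO 1 than in either, and Awat2, Elovl3 and Dgat2l6 lay between the fl/fl libraries. The hair and melanocyte sums were already lower in cKO 1 than in either fl/fl library, as Degs2 was. Fa2h, the fatty acid hydroxylase, had the Cers4 pattern (86.8, 12.0, 74.5 and 65.7 TPM in cKO 1, cKO 2, fl/fl 1 and fl/fl 2), and Sptssb, a small subunit of serine palmitoyltransferase, the Degs2 pattern (8.26, 0, 31.7 and 20.1 TPM). Both were singled out after their values were seen. The part of hair follicle, sebaceous gland and melanocyte content in the values of these 4 genes was not tested.

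Sgms1 and Sgms2 encode the sphingomyelin synthases, Sgms1 of the Golgi and Sgms2 mainly of the plasma membrane, which move phosphocholine onto ceramide. Sgms2 was read at 6.26 and 6.73 CPM in cKO 1 and cKO 2 and at 30.3 and 19.8 CPM in fl/fl 1 and fl/fl 2. These values rest on 92 and 102 counts against 446 and 341, and the groups were well apart. The log2 fold change was -1.95 ± 0.28 (SE), a fold of 0.260 with a 95% interval from 0.157 to 0.430, and the adjusted p was 0.0678 by edgeR and 8.26e-06 by DESeq2. It lay between -2.24 and -1.61 without any 1 library. Sgms2 was at a like level in cKO 1 and cKO 2, in which the hair sum was 3463 and 12.6 TPM. All 16 hair markers were also lower in both cKO libraries than in both fl/fl libraries, and their part in the Sgms2 values was not tested.

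Sgms1 gave no direction. It was at 82.6, 92.2, 96.5 and 80.6 CPM in cKO 1, cKO 2, fl/fl 1 and fl/fl 2, and the groups overlapped. Its log2 fold change of -0.02 ± 0.18 (SE; edgeR adjusted p = 0.949) had an interval of the fold from 0.717 to 1.36, and it turned positive with no scaling factor and without cKO 1 or fl/fl 1. Within a library, Sgms2 made up 4.15% and 3.99% of the summed TPM of both synthases in the cKO libraries and 14.9% and 12.2% in the fl/fl libraries. The mean log2 ratio of Sgms2 to Sgms1 differed by -1.88 between the groups, between -2.04 and -1.71 without any 1 library, with the smallest exact permutation p the design allows (p = 0.333).

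**Figure D4:**
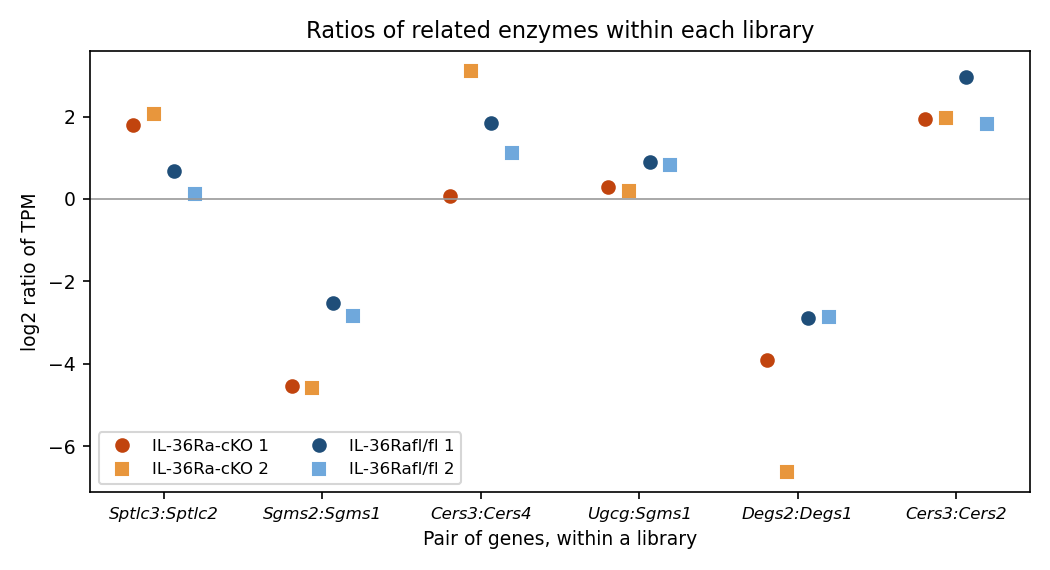
log2 ratio of TPM for 6 pairs of related enzymes, each computed within a library; each point is 1 library. The groups do not overlap for Sptlc3:Sptlc2, Sgms2:Sgms1, Ugcg:Sgms1 and Degs2:Degs1, and they overlap for Cers3:Cers4 and Cers3:Cers2.

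Ugcg encodes the synthase that adds glucose to ceramide, the form in which most barrier ceramide is carried to lamellar granules. It was read at 116 and 123 CPM in cKO 1 and cKO 2 and at 209 and 166 CPM in fl/fl 1 and fl/fl 2, with both cKO libraries below both fl/fl libraries. The log2 fold change was -0.65 ± 0.20 (SE), a fold of 0.637 with a 95% interval from 0.443 to 0.915, and the adjusted p was 0.116 by edgeR and 0.0406 by DESeq2. Without any 1 library it lay between -0.83 and -0.48. The enzymes encoded by Ugcg and Sgms1 both use ceramide. Ugcg to Sgms1 TPM ratios were 1.21 and 1.15 in the cKO libraries and 1.85 and 1.77 in the fl/fl libraries. The log2 difference was -0.62 (exact permutation p = 0.333, the smallest possible).

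The windows of Ugcg and Cers3, the most abundant members in the fl/fl libraries, are shown beside those of the catalytic subunits because their log2 fold changes were close (-0.65 and -0.73) and their base composition is not. Ugcg lies at chr4:59189300-59189599 and Cers3 at chr7:66743254-66743553, both on the plus strand (RefSeq, GRCm38.p6), and capitals again mark CCAAT and GC boxes on either strand.
Ugcg: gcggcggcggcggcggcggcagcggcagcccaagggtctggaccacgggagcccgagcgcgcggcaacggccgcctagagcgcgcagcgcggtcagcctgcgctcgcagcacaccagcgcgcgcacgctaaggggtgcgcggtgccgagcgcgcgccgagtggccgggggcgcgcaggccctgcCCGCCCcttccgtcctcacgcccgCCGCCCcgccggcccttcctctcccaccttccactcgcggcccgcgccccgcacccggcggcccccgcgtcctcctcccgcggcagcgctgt
Cers3: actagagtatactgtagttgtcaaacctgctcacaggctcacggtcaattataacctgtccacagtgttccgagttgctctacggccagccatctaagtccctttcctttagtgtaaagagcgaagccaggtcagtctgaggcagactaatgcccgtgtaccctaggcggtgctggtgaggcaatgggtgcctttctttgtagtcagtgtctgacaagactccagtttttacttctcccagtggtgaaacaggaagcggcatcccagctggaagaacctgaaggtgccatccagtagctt

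The Ugcg window holds 81.3% G and C, with as much or less in 99.4% of all windows, and has 2 GC boxes on the minus strand. The Cers3 window holds 50.7% G and C and none of the 6 motifs searched.

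Among 57 other sphingolipid genes in the table, grouped by role, 56 were tested and none passed an adjusted p of 0.05 by edgeR. The fit gave 12 genes on the higher and 9 on the lower side an unadjusted p under 0.05, or 37.5% of the 56 against 32.1% of all genes tested. DESeq2 gave 16 of the 56 an adjusted p under 0.05, while 17.8% of all genes passed in it. With the replicate number as a further term in the fit, 16 in place of 21 genes had an unadjusted p under 0.05. The share of all genes tested was then 21.8% in place of 32.1%. The median change of the 56 was 0.04. These lists were drawn up with earlier results of these data known.

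**Figure D5:**
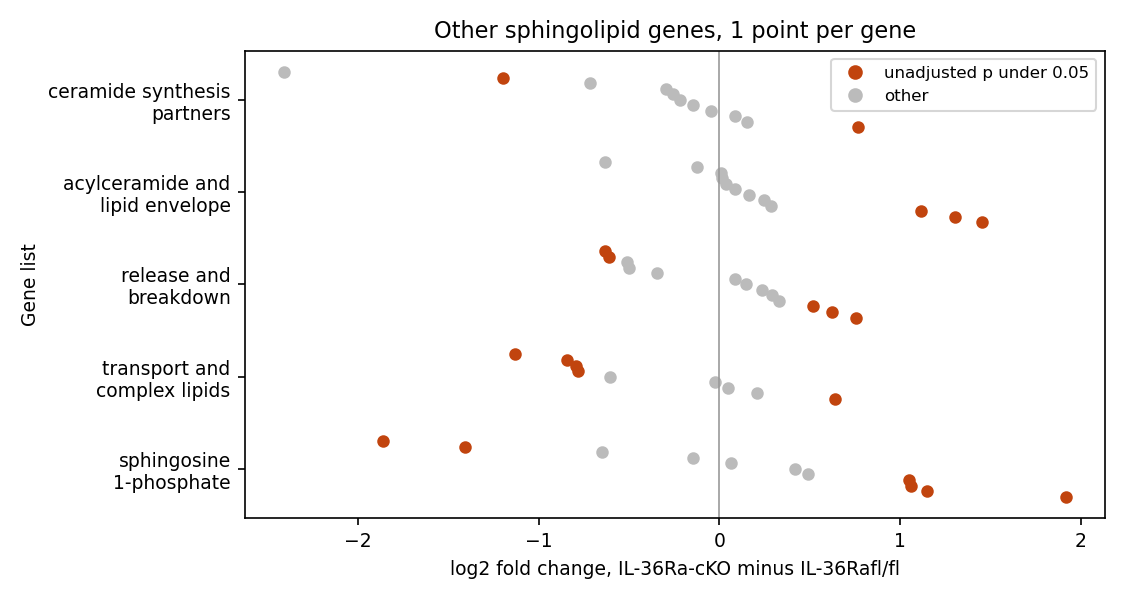
log2 fold change of each of the 56 other sphingolipid genes tested, by list, 1 point per gene; coloured points have an unadjusted p under 0.05. The acylceramide list has 3 coloured points, all to the right of 0, and the list of transport and complex lipids has 4 of 5 to the left. Of all genes tested, 32.1% had an unadjusted p under 0.05.

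Of 11 partners of ceramide synthesis tested, 2 had an unadjusted p under 0.05, against 32.1% of all genes tested. Cers6, which makes ceramides with shorter fatty acids, was at 9.89 and 13.6 TPM in the cKO against 8.05 and 7.37 TPM in the fl/fl libraries (log2 fold change 0.77 ± 0.19, SE), and Ormdl1, of the family that restrains serine palmitoyltransferase, was at 16.0 and 17.0 against 58.3 and 28.7 TPM (-1.20 ± 0.34). The other 9 had an unadjusted p of 0.05 or more, and the median was -0.22. Sptssa, a small subunit that activates the enzyme and the most abundant of the list, was at 442, 647, 1513 and 570 TPM in cKO 1, cKO 2, fl/fl 1 and fl/fl 2, and fl/fl 1 stood apart.

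Of 12 genes of acylceramide and of the lipid envelope bound to corneocytes, 25% had an unadjusted p under 0.05, against 32.1% of all genes tested. These were 3 genes, all on the higher side. They were the lipoxygenases Aloxe3 (1.46 ± 0.19, log2 fold change ± SE) and Alox12b (1.12 ± 0.31), which oxidise the linoleate of acylceramide, and the elongase Elovl1, which makes very long acyl-CoAs. Elovl1 was at 559 and 421 TPM in the cKO libraries against 225 and 228 TPM in the fl/fl libraries (a fold of 2.47). The omega-hydroxylase Cyp4f39, the acylceramide synthase Pnpla1 and the transporter Abca12, named for their place in the path after their values were seen, were at 0.25 ± 0.18, 0.01 ± 0.18 and 0.09 ± 0.23. The ultra-long-chain elongase Elovl4, the list's most abundant gene, was at 356, 247, 662 and 406 TPM in cKO 1, cKO 2, fl/fl 1 and fl/fl 2 (-0.63 ± 0.34). The list's median was 0.13. The sum of the 11 suprabasal markers, from the layers in which these genes act, was 51562 and 47842 TPM in the cKO and 38500 and 31037 TPM in the fl/fl libraries, with 5 markers on the higher side and Dsc1 on the lower side at an unadjusted p under 0.05. Without Krtdap, its most abundant gene, a choice made after seeing the data, the sum was 28562 and 22166 against 24074 and 16292 TPM and the groups overlapped. The part of these markers in the acylceramide values was not tested.

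Enzymes that release or break down ceramide went both ways. Of 13 tested, 5 (38.5%, against 32.1% of all genes tested) had an unadjusted p under 0.05. Of these 5, 3 were on the higher and 2 on the lower side, and the list's median was 0.15. The alkaline ceramidase Acer1, the main one of differentiating keratinocytes, was at 105 and 94.4 TPM in the cKO against 70.3 and 63.7 TPM in the fl/fl libraries (0.76 ± 0.18). The neutral sphingomyelinase Smpd2 was at 0.52 ± 0.19. The acid ceramidase Asah1 was at 36.6 and 43.4 against 69.3 and 69.4 TPM (-0.61 ± 0.16), and Acer2 at -0.63 ± 0.24. Psap, the precursor of the saposins that assist these enzymes and the most abundant of the list, was at 0.09 ± 0.21.

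Of 9 genes of ceramide transport and complex sphingolipids, 55.6% had an unadjusted p under 0.05, against 32.1% of all genes tested. They were 1 on the higher and 4 on the lower side, and the list's median was -0.60. The ceramide kinase Cerk was at 33.1 and 32.6 TPM in the cKO against 23.4 and 24.3 TPM in the fl/fl libraries (0.64 ± 0.15). Plekha8, which carries glucosylceramide through the Golgi, was at 4.78 and 4.05 against 9.22 and 8.02 TPM (-0.79 ± 0.18), and the galactosyltransferase B4galt6, which extends glucosylceramide to lactosylceramide, at -1.13 ± 0.29. Samd8, which makes the ceramide phosphoethanolamine relative of sphingomyelin, was at -0.78 ± 0.26, and St3gal5, which makes the ganglioside GM3, at -0.84 ± 0.32. Levels were low for St3gal5, at 31, 30, 47 and 71 counts in cKO 1, cKO 2, fl/fl 1 and fl/fl 2. B4galt6 was at 61, 87, 179 and 164 counts. St3gal5 and the ceramide transfer protein gene Cert1 were named after their values were seen. Cert1 was at -0.60 ± 0.35, with an unadjusted p above 0.05, and the glycolipid transfer protein gene Gltp, the most abundant, at 0.21 ± 0.20.

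Of 11 genes of sphingosine 1-phosphate, the signalling lipid made when ceramide is broken down, 54.5% had an unadjusted p under 0.05. The share of all genes tested was 32.1%. In this list 4 were on the higher and 2 on the lower side, and the median was 0.42. Both sphingosine kinases were among the higher ones: Sphk1 was at 85.9 and 73.9 TPM in the cKO against 39.4 and 36.9 TPM in the fl/fl libraries (1.15 ± 0.20) and Sphk2 at 54.6 and 43.4 against 25.0 and 25.6 TPM (1.06 ± 0.20). The receptor S1pr5 was at 1.05 ± 0.20 and the leukocyte receptor S1pr4, named after its values were seen, at 1.92 ± 0.54. The phosphatase Sgpp2 (-1.86 ± 0.52) and the receptor S1pr3 (-1.41 ± 0.49) were the lower ones, and both were lower in cKO 2 than in cKO 1. Levels were low for Sgpp2, at 32, 12, 83 and 89 counts in cKO 1, cKO 2, fl/fl 1 and fl/fl 2. The same held for S1pr4, at 97, 49, 13 and 29 counts. Sgpp1, the most abundant, was at 195, 253, 604 and 196 TPM in cKO 1, cKO 2, fl/fl 1 and fl/fl 2, with fl/fl 1 apart, as for Sptssa.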

How the data were processed

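The authors deposited a table of expected counts per gene, listed as a read count and not normalized, beside TPM, FPKM and normalized count values (a signal scaled per library); FPKM and the normalized signal were not used, nor were 8 columns of group means. The build GRCm39, RSEM 1.3.1, DESeq2 1.4.5 and Bowtie2 2.3.4.3 are named, with no role or order, per the submitters' processing notes. The sources used here do not give annotation, filters or strandedness. The expected counts deposited by the authors were rounded and tested across all genes with edgeR 4.0.16 (R 4.3.3; TMM scaling, default filter, quasi-likelihood F test, group as the only term), which left 3499 genes untested and 2 residual degrees of freedom. The Benjamini-Hochberg method adjusted p over all genes tested. Levels between genes use TPM as deposited by the authors. Marker sums add TPM over fixed lists. The code was tested on simulated counts. Alternatives were DESeq2 1.42.0, limma 3.58.1 on log2 TPM, other scaling and filters, a replicate block and each library left out. Of other genes, those with the smallest p per direction and the most abundant were named for each list; genes named outside that rule are said to be, and 1 gene that the rule names is not reported here. Members and lists were chosen with earlier results of these data known. Of 17958 identifiers, 17838 matched RefSeq, all 9 members among them. Intervals are 95% intervals from the fit.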

Additional observations from a re-analysis of the deposited data

How the results depend on the processing

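Sptlc2, Sptlc3, Cers3, Degs2, Sgms2, Ugcg and Sptlc1 kept their sign under all 12 other settings. Sgms1 was positive with no scaling factor (0.0401), without cKO 1 (0.06) and without fl/fl 1 (0.11), over a range of -0.16 to 0.11 without 1 library; Cers4 was 0.45 without cKO 2 and -2.53 without cKO 1. The count of all genes with an adjusted p under 0.05, 4 in edgeR, was 2574 with DESeq2, 1359 with no scaling factor, 6 with no filter on low counts, 1 with limma on log2(TPM + 1) and no filter, 2201 at an adjusted p under 0.1, and 0 to 887 without 1 library (887 without cKO 1, 0 without each of the others). The count of members, 0 in edgeR, was 4 with DESeq2, 2 with no scaling factor, 2 at an adjusted p under 0.1, and 0 to 2 without 1 library (Cers4 and Degs2 without cKO 1). Members with an unadjusted p under 0.05, 5 in the fit, numbered 3 with the replicate block and 2 to 4 without 1 library, and other sphingolipid genes, 21 in the fit, numbered 16 with the block and 10 to 20 without 1 library. The causes were not tested. The sources used here do not say whether the replicate numbers pair libraries, so the numbers are not taken as pairs. Deviations of same-numbered libraries from their group means correlated weakly across genes (-0.13), which cannot show or exclude pairing with 2 libraries per group. Crossed pairs, tried after seeing the data, gave 0 genes and 0 members at the adjusted threshold. At the unadjusted one they gave 5 members and 21 other genes. Across the ratios, also left out after seeing the data, Cers3:Cers4 ran from -1.40 (without cKO 2) to 1.64 and was -0.24 without fl/fl 2, and Cers3:Cers2 ran from -1.02 to 0.13 (without fl/fl 1). A fit without 1 library assumes that the lone library of a group varies like the other group.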
